A study of Mus musculus with 338 samples.

Results

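The glucagon gene and 5 further genes used as marks of alpha cell identity were followed across mouse pancreatic islets: Gcg, Irx1, Irx2, Ttr, Pou3f4 and Tmem27. They were taken by symbol from the raw count table, 6 of its 21382 genes, and all 6 passed the filter on low counts that left 16498 genes for testing. The study sequenced islet RNA from mice, 1 library per mouse, of the inbred strains AKR/J, DBA/2J, 129S2/SvPas, C57Bl/6J, BALB/cJ and A/J. Of these mice 172 were on a diet labelled High Fat, High Sugar (HFHS) and 166 on Regular Chow (RC), each for 2, 10, 30 or 90 days, which gives 48 groups of 4 to 11 mice. The labels give no transgene, drug, age or sex for any group, so the groups differ by strain, diet and day alone as far as the labels go. Reads assigned to genes ran from 9526926 to 50751894 per library, with a median of 25989180, and the level of a gene is its count scaled to that total, written CPM.

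Alpha cells are the glucagon-secreting cells of the islet, which in mice is made mostly of insulin-secreting beta cells with smaller numbers of alpha, delta and PP cells. Glucagon is cut from the precursor that Gcg encodes and raises blood glucose by acting on the liver, and the homeodomain factors Irx1, Irx2 and Pou3f4 are more abundant in alpha than in beta cells. Pou3f4, also called Brn4, is a POU-domain protein that binds the Gcg promoter, Ttr encodes transthyretin, the carrier of thyroxine and of retinol-binding protein, and Tmem27 encodes collectrin, a membrane glycoprotein described chiefly in beta cells.

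The 250 bases before the annotated transcription start of Gcg and of Irx2 are shown because these were the members whose difference between diets in AKR/J mice at day 90, given further on, passed the test in all 29 alternative settings. Both are from RefSeq's table for GRCm38.p6, a build later than the mm9 assembly named in the submitters' processing notes, on which no coordinate below rests. The Gcg window is chr2:62483654-62483903 on the minus strand and the Irx2 window chr13:72628570-72628819 on the plus strand. Capitals mark the letters TATAAA, the TATA box, read on either strand, so that TTTATA is the same motif on the other strand.
Gcg promoter: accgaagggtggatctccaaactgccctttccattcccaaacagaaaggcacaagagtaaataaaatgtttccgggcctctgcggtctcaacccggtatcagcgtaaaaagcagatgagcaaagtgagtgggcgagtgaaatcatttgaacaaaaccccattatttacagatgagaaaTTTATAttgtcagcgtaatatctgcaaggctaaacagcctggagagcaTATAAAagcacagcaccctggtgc
Irx2 promoter: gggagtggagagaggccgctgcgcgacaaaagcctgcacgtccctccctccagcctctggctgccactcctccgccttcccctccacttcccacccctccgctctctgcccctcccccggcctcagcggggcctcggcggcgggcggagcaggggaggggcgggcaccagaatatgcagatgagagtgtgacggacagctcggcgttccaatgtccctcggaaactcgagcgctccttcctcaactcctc
Of 32536 promoter windows of this length, 12.3% hold TATAAA on at least 1 strand. In the Gcg window it stands 24 to 19 bases before the start and, on the other strand, 72 to 67 bases before it. The Irx2 window holds none of the 4 motifs searched on both strands, which besides TATAAA were the forkhead motif TGTTTAC (in 3.17% of windows), the Maf site TGCTGA (16.1%) and the homeodomain motif TAATTA (4.84%). The windows differ in base composition: 44.8% G or C with 7 CpG pairs in Gcg, and 68.4% with 19 CpG pairs in Irx2, against medians of 52.4% and 6.0 pairs over all windows. A match or its absence describes these letters only.

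The libraries were not equal in base composition, and this touches some members strongly. In 39 libraries, with 299 left, log2 levels tilted with gene GC content by more than 0.5 per 10 points of GC, 37 of them low for GC-rich genes, and these 39 fell in 14 of the 48 groups, filling BALB/cJ HFHS day 2 and 7 of 8 libraries of DBA/2J RC day 90. In 9 of the 39, strain-specific genes matched a strain other than the labelled one: 2 each of C57Bl/6J HFHS and RC day 90, 2 of 129S2/SvPas HFHS day 2 and 3 of 129S2/SvPas RC day 2. Across libraries the TMM-scaled log2 level followed this tilt with Pearson's r = 0.79 for Irx1, whose transcript is 61.7% GC, 0.70 for Ttr, 0.53 for Pou3f4, -0.08 for Irx2, -0.37 for Gcg and -0.85 for Tmem27, whose transcript is 40.8% GC. These values describe all libraries, which share their preparation, and were not tested. The median Irx1 level was 15.9 CPM in the 299 libraries within the bound and 1.85 CPM in the 39 beyond it, while that of Tmem27 was 699 and 1552 CPM. Results are therefore also given for the 299 libraries within the bound, and with each library's curve of level on GC content as an offset. AKR/J has no library beyond the bound in any group. The summed level of 9 beta cell markers ran from 44814 to 461965 CPM over the mice and that of 10 acinar markers from 75.8 to 75322 CPM. The plot of level against this tilt shows how far apart the members stand.

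**Figure D1:**
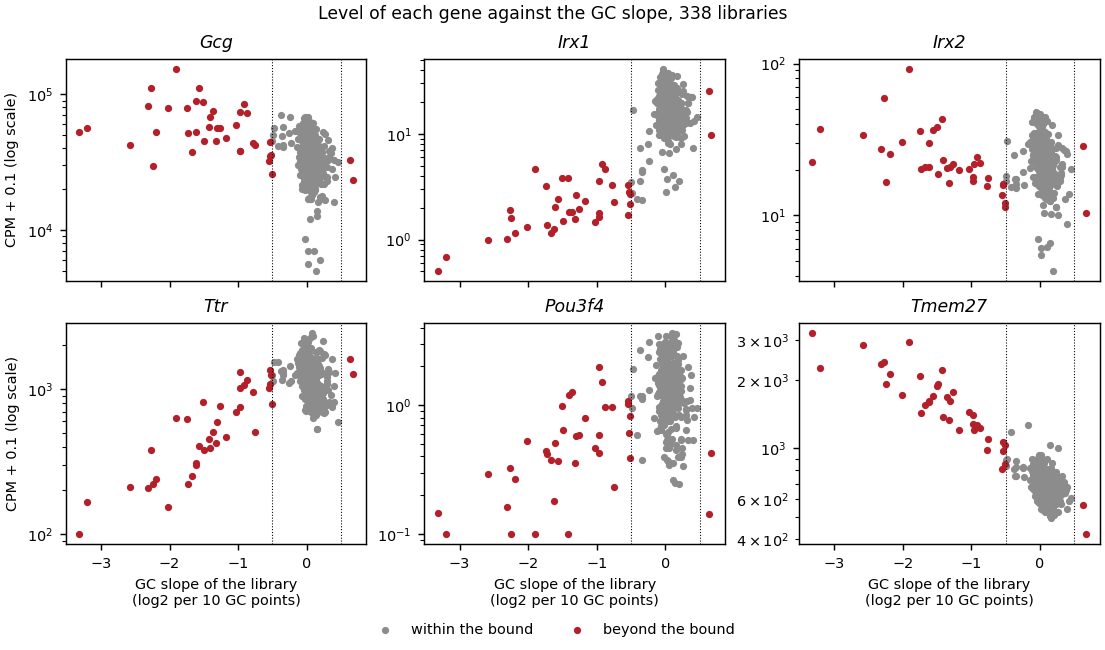
Each point is 1 library, red where beyond the bound; the horizontal axis is the slope of log2 level on gene GC content in log2 per 10 GC points and the vertical axis is CPM plus 0.1 on a log scale, 1 panel per gene. Irx1 falls and Tmem27 rises toward libraries low for GC-rich genes, while Irx2 has medians of 22.7 CPM within the bound and 20.9 CPM beyond it.

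Gcg was by far the most abundant member. Its median over the 299 libraries within the bound was 33424 CPM (range 5010 to 70829), and by its mean over all libraries it ranked 4 among all genes. Ttr had a median of 1142 CPM and Tmem27 of 699 CPM, while the transcription factors were rare: 22.7 CPM for Irx2, 15.9 for Irx1 and 1.26 for Pou3f4. Per kilobase of transcript the order was the same, with 30720 CPM per kb for Gcg, 963 for Ttr, 503 for Tmem27, 8.65 for Irx2, 6.68 for Irx1 and 0.432 for Pou3f4. Pou3f4 had 3 or fewer reads in 9 libraries and none in 4 of them. A count of 0 allows up to 3 reads, so its lowest values are limited by counting. In whole islets, fewer alpha cells and less RNA per alpha cell cannot be told apart.

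Glucagon mRNA differed among strains already on chow and moved over the days of the study. In 129S2/SvPas mice, Gcg means in CPM ± SD were among the highest. On RC the level was 69822 ± 34285 (n = 8) at day 2, 58863 ± 6331 (n = 5) at day 10, 48458 ± 8366 (n = 8) at day 30 and 36043 ± 11947 (n = 11) at day 90. On HFHS it was 47076 ± 11254 (n = 10), 52462 ± 6325 (n = 6), 40432 ± 6179 (n = 7) and 39169 ± 9125 (n = 10) at the same days. The day 2 RC mean contains 3 libraries that lie beyond the bound and match C57Bl/6J, among them the highest Gcg value of the series at 153302 CPM, and without them it was 58223 ± 8084 (SD, n = 5). BALB/cJ mice also started high and were lower at each later day on HFHS. On RC the level was 56749 ± 11035 (n = 6) at day 2, 57383 ± 11173 (n = 6) at day 10, 39630.3 ± 3133 (n = 8) at day 30 and 33408 ± 3098 (n = 8) at day 90. On HFHS it was 86953 ± 12519 (n = 6), 51694 ± 8708 (n = 6), 43995 ± 5213 (n = 8) and 35647 ± 5697 (n = 7) at the same days. All 6 BALB/cJ libraries of HFHS day 2 lie beyond the bound.

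In DBA/2J and AKR/J mice, and in no other strain, the HFHS mean was below the RC mean by more than the larger SD at both day 30 and day 90. In DBA/2J mice, HFHS means were lower at days 30 and 90 than at days 2 and 10. On RC the level was 38779 ± 4344 (n = 6) at day 2, 36652 ± 4751 (n = 5) at day 10, 47057 ± 4911 (n = 8) at day 30 and 46443 ± 8278 (n = 8) at day 90. On HFHS it was 43452 ± 5961 (n = 6), 44476 ± 7540.1 (n = 6), 31428 ± 5718 (n = 8) and 22265 ± 8372 (n = 8) at the same days. In AKR/J mice the HFHS means were lower at each later day. On RC the level was 25064 ± 1969.5 (n = 5) at day 2, 35496 ± 5657 (n = 6) at day 10, 25123 ± 3787 (n = 8) at day 30 and 20074 ± 2811 (n = 8) at day 90. On HFHS it was 30751 ± 5068 (n = 6), 22454 ± 3023 (n = 6), 19121 ± 2976 (n = 8) and 8733 ± 4643 (n = 8) at the same days. The 8733 CPM of AKR/J HFHS day 90 was the lowest of the 48 group means.

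C57Bl/6J and A/J mice had intermediate levels. For the libraries labelled C57Bl/6J the spread at day 90 was wide on both diets, with 2 libraries in each group that match another strain. On RC the level was 32282 ± 3829.7 (n = 6) at day 2, 33849 ± 6751 (n = 6) at day 10, 31066 ± 3135 (n = 8) at day 30 and 41854 ± 27257 (n = 7) at day 90. On HFHS it was 35751 ± 3443 (n = 6), 37901 ± 7341 (n = 6), 30081 ± 9719.5 (n = 8) and 44854 ± 34262 (n = 8) at the same days. Without these, which are also the libraries beyond the bound there, the day 90 means were 26276 ± 5013 (SD, n = 5) on RC and 27848 ± 12321 (SD, n = 6) on HFHS. In A/J mice the means of the diets differed by less than the larger SD at days 30 and 90. On RC the level was 37173 ± 12558 (n = 5) at day 2, 39107 ± 5282 (n = 4) at day 10, 29443 ± 3671 (n = 8) at day 30 and 25572 ± 2684 (n = 8) at day 90. On HFHS it was 42195 ± 6905 (n = 6), 41564 ± 13922 (n = 6), 26655 ± 6104 (n = 8) and 25952 ± 4109 (n = 8) at the same days. Without the libraries beyond the bound, A/J HFHS day 10 was 26099.9 ± 1976 (SD, n = 2) and A/J HFHS day 2 45715 ± 8239 (SD, n = 3).

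**Figure D2:**
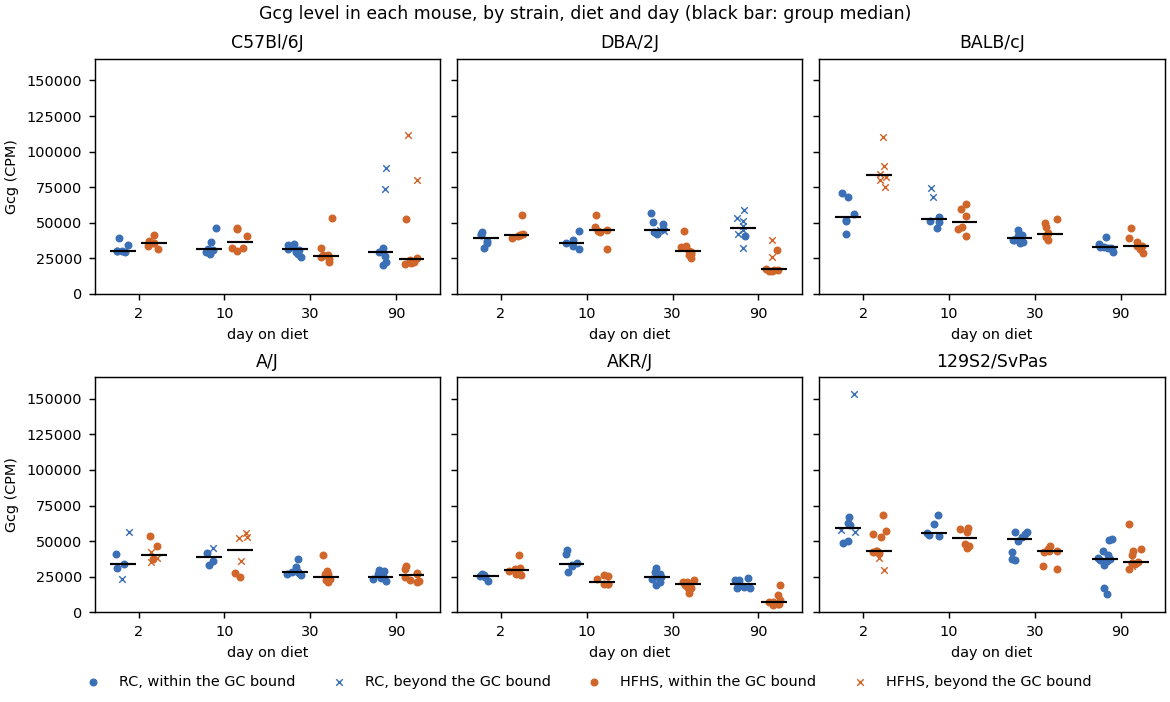
Gcg level of every mouse in CPM by day on the diet, 1 panel per strain, with both diets side by side, black bars for the group median and crosses for libraries beyond the GC bound. The AKR/J HFHS mice of day 90 sit between 5010 and 18887 CPM, and the AKR/J RC mice of that day between 16909 and 24011 CPM.

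Within the bound, 46 groups kept at least 2 libraries, and the order of their Gcg means was nearly continuous: in 44 of 45 neighbouring pairs the means lay closer than the larger of both SDs. The exception was at the bottom, where AKR/J HFHS day 90 at 8733 ± 4643 CPM stood below DBA/2J HFHS day 90 at 19049.6 ± 5869.8 (SD, n = 6) CPM, and the top was 129S2/SvPas RC day 10 at 58863 ± 6331 CPM. Irx2 ran from 40.8 ± 4.66 (SD, n = 5) CPM in 129S2/SvPas RC day 2 to 7.26 ± 2.81 (SD, n = 8) CPM in AKR/J HFHS day 90, again with DBA/2J HFHS day 90 next at 11.5 ± 3.27 (SD, n = 6) CPM. Irx1 was also highest in 129S2/SvPas RC day 2 at 34.8 ± 4.00 (SD, n = 5) CPM. Its lowest groups were DBA/2J RC day 30, where every library is tilted against GC-rich genes, at 3.95 ± 0.977 (SD, n = 6) CPM and AKR/J HFHS day 90 at 4.87 ± 2.79 (SD, n = 8) CPM. Pou3f4 was highest in BALB/cJ HFHS day 10 at 3.02 ± 0.508 (SD, n = 6) CPM and lowest in AKR/J HFHS day 90 at 0.243 ± 0.0930 (SD, n = 8) CPM. Thus AKR/J HFHS day 90 was the lowest group for Gcg, Irx2 and Pou3f4 and next to lowest for Irx1. Ttr and Tmem27 were ordered otherwise. Ttr ran from 1958 ± 155.8 (SD, n = 5) CPM in 129S2/SvPas RC day 10 to 703 ± 120.4 (SD, n = 7) CPM in BALB/cJ HFHS day 90, and Tmem27 from 933 ± 285 (SD, n = 3) CPM in A/J HFHS day 2 to 564 ± 51.9 (SD, n = 8) CPM in DBA/2J HFHS day 30. In these orders 43 of 45 neighbouring pairs for Irx1 and for Irx2, 44 for Pou3f4 and 45 for Ttr and for Tmem27 lay closer than the larger SD.

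On chow alone, over all days, the strains were compared by testing each against the mean of the other 5. 129S2/SvPas islets held the most Irx1 and Irx2, with medians of 24.8 CPM for Irx1 (9.81 to 40.7 over 29 mice within the bound) and 34.7 CPM for Irx2 (12.3 to 46.8). The Irx1 medians of the other 5 strains were 12.1 to 16.6 CPM and their Irx2 medians 16.9 to 23.3 CPM, with ranges that overlap those of 129S2/SvPas. In edgeR's quasi-likelihood test with Benjamini-Hochberg adjustment over the 16498 genes, the log2 fold change of 129S2/SvPas was 1.10 (SE 0.13, adjusted p = 6.84e-15) for Irx1. It was 0.86 (SE 0.06, adjusted p = 5.38e-36) for Irx2 and 0.57 (SE 0.07, adjusted p = 5.09e-14) for Gcg. A strain difference was called only where the adjusted p was under 0.05 and the log2 fold change at least 1 in size, and 2 of 36 gene by strain tests met this, against 3.37% of all such tests over all genes. The first was Irx1 in 129S2/SvPas (2.95% of genes met it in that strain), whose value was 0.95 on the authors' normalized table. The other was lower Irx1 in DBA/2J (4.67% of genes met it) at -1.27 (SE 0.16, adjusted p = 1.35e-12). That call rests on libraries beyond the bound: the DBA/2J value was -0.70 within the bound and -0.64 with the GC offset.

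AKR/J had the least glucagon mRNA on chow, with a median of 24520 CPM (16909 to 43600 over 27 mice), against 50438 CPM in 129S2/SvPas, 41724 in DBA/2J, 41019 in BALB/cJ, 30493 in C57Bl/6J and 28557 in A/J within the bound. The log2 fold change of AKR/J was -0.64 (SE 0.08, adjusted p = 2.2e-13) for Gcg and -0.75 (SE 0.16, adjusted p = 1.7e-05) for Pou3f4, both short of the size that the call asks. Pou3f4 was highest in BALB/cJ, with a median of 2.08 CPM against 0.71 CPM in AKR/J and a log2 fold change of 0.99 (SE 0.13, adjusted p = 2.8e-11). Ttr split the strains another way, at medians of 1600 CPM in 129S2/SvPas, 1513 in A/J and 1379 in C57Bl/6J and of 980 in DBA/2J, 969 in BALB/cJ and 888 in AKR/J. Tmem27 medians lay between 664 CPM in DBA/2J and 837 CPM in 129S2/SvPas.

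After 90 days, AKR/J mice on HFHS had 0.488 times the glucagon mRNA of AKR/J mice on chow. The lowest, median and highest Gcg levels of 8 mice were 5010.2, 6974 and 18887 CPM on HFHS and 16909, 19604 and 24011 CPM on RC. In words, 7 of 8 HFHS mice were below the lowest RC mouse, and the eighth, mouse 5HF44, was within the RC range. Gcg fell by 1.04 on the log2 scale (SE 0.18, adjusted p = 1.57e-06). The same call was made in 29 of 29 alternative settings, with log2 fold changes of -1.27 to -0.95. Of these settings 16 leave out 1 mouse each and were added after the data were seen. In this contrast 12.4% of all genes passed, and 5.87% passed with lower levels on HFHS.

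The Iroquois factors moved with the hormone gene. Irx2 had 4.23, 6.30 and 12.8 CPM on HFHS (lowest, median, highest) and 11.7, 15.1 and 18.9 CPM on RC. The groups overlapped only in the highest HFHS mouse, again 5HF44. Irx2 fell by 0.88 (SE 0.15, adjusted p = 2.48e-06), with the same call in 29 of 29 settings. Irx1 had 2.73, 3.78 and 11.2 CPM on HFHS and 8.12, 10.5 and 12.1 CPM on RC. Every HFHS mouse other than 5HF44 was below every RC mouse in Irx1. Its log2 fold change of -0.92 (SE 0.35, adjusted p = 0.0607) missed the threshold with all libraries and passed in 8 of 29 settings. Within the bound it was -0.92 (adjusted p = 5.61e-06), with the GC offset -0.94 (8.15e-06), and without 5HF44 -1.19 (adjusted p = 0.0131).

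The other members did not pass with all libraries. Pou3f4 was 0.143, 0.249 and 0.420 CPM on HFHS and 0.266, 0.441 and 0.648 CPM on RC, overlapping ranges with a log2 fold change of -0.64 (SE 0.35, adjusted p = 0.251). Ttr was 663, 964 and 1343 CPM on HFHS and 760.5, 925 and 977 CPM on RC, with 0.36 (SE 0.25, adjusted p = 0.438). Tmem27 was 523, 576 and 645 CPM on HFHS and 584, 642 and 695 CPM on RC. Its log2 fold change was 0.04 (SE 0.16, adjusted p = 0.938) with TMM scaling, which corrects library totals for a few very abundant genes, and turned to -0.05 with an acinar covariate, while the plain CPM means were 581 and 640. So 2 of 6 members fell and none rose with all libraries. Within the bound, where 30.2% of all genes passed, Gcg, Irx1, Irx2 and Pou3f4 fell, Pou3f4 with -0.65 and adjusted p = 0.0271. Ttr rose there, with 0.34 and adjusted p = 0.048.

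**Figure D3:**
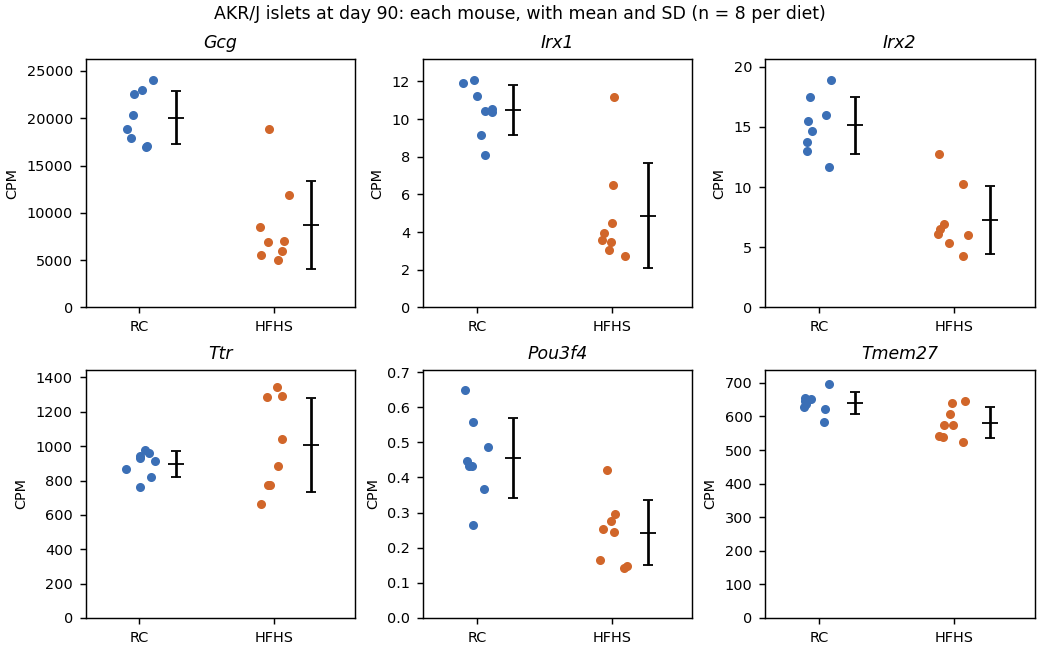
CPM of each AKR/J mouse at day 90 on HFHS and RC, 8 mice each, 1 panel per gene on a linear axis, with bars for the mean and SD. For Gcg, Irx1 and Irx2 every HFHS mouse but 1 lies below the RC mice, and for Ttr and Tmem27 the diets overlap.

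Other genes of the alpha cell were split in the same contrast. Slc7a2, an arginine transporter, fell by 0.66 on the log2 scale. Gc, the vitamin D-binding protein, which is made by alpha cells in normal islets, rose by 1.72 (239 ± 79.4 CPM on HFHS against 82.7 ± 3.42 CPM on RC, SD over 8 mice each). Among 12 genes of glucagon processing and signalling, Scg5, the chaperone of the convertase Pcsk2, rose by 0.46. Avpr1b, a vasopressin receptor, fell by 1.14, the somatostatin receptor gene Sstr2 fell by 0.76 with an adjusted p at the threshold, and 9 did not pass. Pcsk2, which cuts glucagon from its precursor, was at 0.17 (adjusted p = 0.166). Pax6, a paired homeodomain factor that activates Gcg, did not pass at -0.02.

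Markers of other cell types moved with the members here. All 4 delta cell markers fell, Sst by 0.72, with summed levels of 1215 to 3192 CPM on HFHS and 3004 to 3898 CPM on RC. All 4 Schwann cell and neuron markers fell as well, with sums of 4.24 to 12.3 CPM on HFHS and 10.5 to 17.4 CPM on RC. Of 10 acinar markers 2 fell and 2 rose, with sums of 570.4 to 5285 CPM on HFHS and 3041 to 20116 CPM on RC. Of 9 beta cell markers Iapp rose and Slc2a2 fell, with sums of 303681 to 368364 CPM on HFHS and 248021 to 286082 CPM on RC, and Ppy, the PP cell hormone, did not pass at -0.44. Duct, macrophage and liver markers had 1 change each out of 6, 5 and 4. Of 4 gut endocrine markers Cck rose, Gip and Sct fell, and 1 did not pass. Cck had 12.6 ± 16.9 CPM on HFHS against 0.776 ± 1.34 CPM on RC. Gip had no read in the HFHS mice, and on RC its median was also 0.0 CPM, with a highest value of 4.24. Sct medians were 0.024 CPM on HFHS and 0.096 CPM on RC, with a highest RC value of 6.28. No endothelial, stellate or lymphocyte marker of 4, 5 and 4 passed. The part of other cell types in the members' differences was not tested.

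The contrast at day 90 did not run alike in all strains. Gcg also fell in DBA/2J mice, where HFHS mice had 15989, 17377 and 37835 CPM and RC mice 32339, 46373 and 59005 CPM (lowest, median, highest of 8 each). The ranges overlap, and the log2 fold change was -0.82 (SE 0.18, adjusted p = 4.3e-05). There 7 of 8 RC libraries and 2 of 8 HFHS libraries lie beyond the bound, and 55.4% of all genes passed. With the GC offset the Gcg difference was -0.45 (adjusted p = 0.0252), with 32.4% of genes passing. It was called in 27 of 27 settings, 16 of which leave out 1 mouse each and were added after the data were seen. The fit within the bound is not among them, since 1 RC library is left there. In the other 4 strains the log2 fold changes of Gcg were 0.11 for C57Bl/6J (95% interval -0.25 to 0.47), 0.11 for BALB/cJ (-0.24 to 0.47), -0.01 for A/J (-0.35 to 0.34) and 0.15 for 129S2/SvPas (-0.15 to 0.45), none past the threshold. The strain by diet interaction at day 90 passed for Gcg (adjusted p = 1.89e-06), Irx1 (7.15e-06), Irx2 (7.87e-07) and Ttr (0.00611), in a test that 50.3% of all genes passed. Within the bound, where 43.1% passed and DBA/2J could not be fitted, the Gcg, Irx1, Irx2 and Ttr interactions also passed. Averaged over strains at day 90, Gcg was the only member past the threshold (16.6% of all genes), at -0.25 (SE 0.07, adjusted p = 0.00941), and it was -0.16 (adjusted p = 0.111) within the bound and without DBA/2J.

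**Figure D4:**
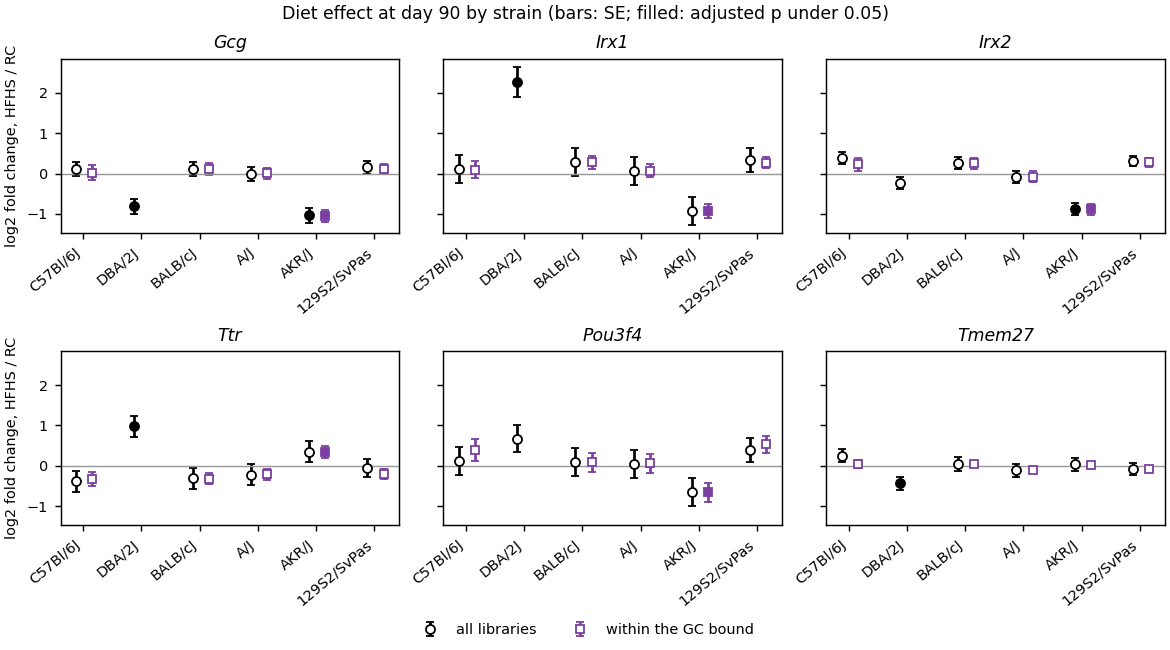
Log2 fold change of HFHS over RC at day 90 for each member and strain, with bars of 1 SE; filled symbols have an adjusted p under 0.05, and values for all libraries and within the GC bound stand side by side. DBA/2J has no value within the bound, since 1 RC library is left there; Gcg is lowest in AKR/J at -1.04 and DBA/2J at -0.82.

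Over the 24 strain and day contrasts of diet, 22 of the tests of 6 members passed, against 10.4% of all gene tests: 9 at day 2, 3 at day 10, 4 at day 30 and 6 at day 90. All 16 before day 90 lay in contrasts with libraries beyond the GC bound. In AKR/J at day 10, Gcg was 19769, 21607 and 26472 CPM on HFHS and 28311, 33745 and 43600.2 CPM on RC, 6 mice each with no overlap. The log2 fold change was -0.68 (SE 0.20, adjusted p = 0.146), in a contrast that 0.145% of genes passed. None of the 6 members passed in edgeR's test, Gcg and Irx2 had an unadjusted p under 0.05, and limma voom called 5 of 6. The share of all genes that limma voom called in this contrast is not given here, and the 0.145% is that of edgeR's test. For the mean over strains at day 10, limma voom called 3378 of 16498 genes. The 5 of 6 therefore does not set the members apart from all genes. With the libraries within the bound, where 14.2% of genes passed and which leaves the AKR/J libraries as they are, Gcg was at -0.65 (adjusted p = 0.00627). Irx1 was at -0.71 (0.00831), Irx2 at -0.58 (0.00691) and Ttr at -0.50 (0.0269). At day 2 the AKR/J means of Gcg were higher on HFHS, at 30751 against 25064 CPM, with a log2 fold change of 0.44 (SE 0.21, adjusted p = 0.217).

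In DBA/2J mice at day 30, Irx1 was higher and Gcg lower on HFHS, in libraries whose tilt also parted by diet. The slope of log2 level on GC content was 0.07 to 0.31 per 10 GC points in the HFHS libraries and -0.78 to -0.23 in the RC libraries, so the tilt and the diet cannot be told apart here. Irx1 was 11.8, 15.2 and 22.0 CPM on HFHS and 2.66, 3.44 and 5.43 CPM on RC, 8 mice each, so that every HFHS mouse was above every RC mouse. The log2 fold change was 2.13 (SE 0.36, adjusted p = 6.49e-07), past the threshold in 28 of 28 settings, and 0.98 with the GC offset. RC mice of this group hold 2 libraries beyond the bound, and without them Irx1 was 3.95 ± 0.977 (SD, n = 6) CPM. Gcg was -0.48 (SE 0.18, adjusted p = 0.0344), Irx2 0.42 (SE 0.15, adjusted p = 0.0316) and Tmem27 -0.47 (SE 0.16, adjusted p = 0.0202) in the same contrast, which 25.8% of genes passed. With the GC offset (11.2% of genes) these 3 were -0.23, 0.02 and -0.13 and did not pass. The Gcg call was lost without any 1 of HFHS mice 2HF122, 2HF125, 2HF127 and 2HF128 or RC mouse 2RC113 (adjusted p of 0.052 to 0.0706), and the Irx2 call without HFHS mouse 2HF121, RC mouse 2RC109 or RC mouse 2RC112 (0.0503 to 0.0891). Tmem27 at day 90 in DBA/2J mice was -0.43 (SE 0.16, adjusted p = 0.014) with all libraries and 0.10 (0.45) with the offset. Irx1 there was 2.27 (SE 0.37, adjusted p = 7.3e-08) with all libraries and 0.31 (0.218) with the offset. Ttr was 0.98 (SE 0.26, adjusted p = 0.000616) with all libraries and kept its call in 27 of 27 settings, 16 of which leave out 1 mouse each. The fit within the bound is not among them, since 1 RC library is left there. That library had 1346 CPM of Ttr, and the HFHS libraries within the bound had 1191 ± 543 (SD, n = 6) CPM. Whether Ttr differs between the diets without the tilted libraries was therefore not tested.

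At day 2 the BALB/cJ contrast compares 6 HFHS libraries that all lie beyond the bound with 6 RC libraries within it, and 66.6% of all genes passed. Irx1 was 0.904, 1.84 and 5.07 CPM on HFHS and 7.25, 10.0 and 18.6 CPM on RC, with no overlap and a log2 fold change of -2.57, which was -0.32 (adjusted p = 0.255) with the GC offset (41.7% of genes). Pou3f4 at -2.17 and Ttr at -1.70 passed with and without the offset. Tmem27 was 0.96 and 0.11 with it. The tilt and the diet cannot be told apart in this contrast. In A/J mice at day 2 (31.7% of genes) Pou3f4 was -1.40 (SE 0.42, adjusted p = 0.00679) and Tmem27 0.64 (SE 0.19, adjusted p = 0.00762), and without RC mouse 4RC3 Pou3f4 was -1.06 (adjusted p = 0.0565). Of the A/J libraries of day 2, 3 of 6 HFHS and 2 of 5 RC libraries lie beyond the bound. The Tmem27 difference was 0.35 (adjusted p = 0.0218) within the bound, but 0.19 (0.204) with the GC offset, and its call was lost in 5 of 18 settings. In 129S2/SvPas mice at day 2 (20.6% of genes) Gcg, Irx2 and Tmem27 were lower on HFHS at -0.57, -0.53 and -0.59 with all libraries. Without the 3 RC and 2 HFHS libraries that match C57Bl/6J they were -0.18, -0.15 and -0.0047, with an adjusted p of 1 each. None of the 3 passed either without RC mouse 6RC5 alone, the library with the highest Gcg of the series, at -0.29, -0.31 and -0.35 (adjusted p of 0.334, 0.191 and 0.148).

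In BALB/cJ mice at day 10 (14.9% of genes) Irx1 was 16.2, 24.8 and 29.4 CPM on HFHS and 1.73, 8.67 and 12.1 CPM on RC, with no overlap, and 2 of the 6 RC libraries lie beyond the bound. Its log2 fold change was 1.63 (SE 0.40, adjusted p = 0.00205), and 1.19 (1.57e-05) within the bound, and Irx2 was 0.55 (SE 0.17, adjusted p = 0.0191), which was 0.15 (0.838) with the GC offset. In A/J mice at day 10 (8.6% of genes) Tmem27 was 0.61 (SE 0.21, adjusted p = 0.0462) with all libraries, -0.21 (0.534) within the bound and 0.03 (0.933) with the offset. Averaged over the strains, Irx1 at -0.45, Pou3f4 at -0.44 and Tmem27 at 0.24 passed at day 2 (41% of genes), and within the bound Tmem27 alone did at 0.15 (19.7%). With the GC offset these 3 were -0.04, -0.41 and 0.07 and did not pass. No member passed at day 10 (0.946% of genes), and within the bound Ttr did at -0.26 (6.48%). With all libraries 0 of 6 members had an unadjusted p under 0.05 in edgeR's test at day 10, and limma voom called 1, where it called 3378 of 16498 genes. At day 30 Irx1 passed at 0.47 (SE 0.14, adjusted p = 0.017) (9.93% of genes). This mean includes DBA/2J at 2.13, where the tilt and the diet cannot be told apart. The call was lost in 2 of 13 settings. These were limma on the authors' table, at 0.48, and the replicate block, which holds no DBA/2J mice, at 0.12. Within the bound (40.7% of genes) Irx1 at 0.45 was joined by Gcg at -0.17, Ttr at -0.27 and Tmem27 at -0.13. The bound keeps 6 of the DBA/2J RC libraries of day 30, all tilted against GC-rich genes. The interaction of strain with diet passed for 6 of 6 members at day 2 (72.3% of genes), for Irx1 and Irx2 at day 10 (8.73%) and for Irx1 at day 30 (6.25%).

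Glucagon mRNA and the alpha cell factors fell between day 2 and day 90 on chow when averaged over strains, though Gcg did not fall in each strain. As a mean over the 6 strains, Gcg fell by 0.38 (SE 0.08, adjusted p = 2.25e-05), Irx2 by 0.31, Irx1 by 0.69 and Pou3f4 by 0.79 on the log2 scale. These 4 of 6 members passed in 21 of 21 settings, and 14% of all genes passed with lower levels. The size of the fall moved with the setting. Irx1, whose level follows the GC tilt most of these, ran from -0.84 to -0.25. Gcg ran from -0.52 to -0.35, Irx2 from -0.33 to -0.26 and Pou3f4 from -1.07 to -0.64. In DBA/2J RC day 90, 7 of 8 libraries lie beyond the bound, and the mean Gcg CPM there, given above, was higher than at day 2. Ttr at -0.17 and Tmem27 at -0.02 did not pass, though Ttr did within the bound at -0.19 (adjusted p = 0.0304). Of other alpha cell genes, the glutamine transporter gene Slc38a5 fell on chow by 0.52. Markers of other cells moved over the same days, in a contrast that 23.2% of all genes passed in either direction. All 4 Schwann cell and neuron markers fell, with a median log2 fold change of -0.64, and of 4 delta cell markers Sst fell by 0.24 and Rbp4 by 0.17. Of 10 acinar markers 1 rose and 1 fell, and the 9 beta cell markers did not pass. Their part in the members' fall was not tested. Within single strains on chow Gcg passed in BALB/cJ at -0.82 (SE 0.19, adjusted p = 0.0007) and in 129S2/SvPas at -0.99 (SE 0.16, adjusted p = 5.36e-08). Within the bound these were -0.80 (adjusted p = 7.94e-06) and -0.72 (8.49e-05). The share of all genes that passed in the BALB/cJ and 129S2/SvPas contrasts is not given here.

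On HFHS the fall of Gcg was -0.73 (SE 0.08, adjusted p = 2.17e-17) with all libraries, Irx2 was -0.41 (SE 0.06, adjusted p = 1.48e-08) and Tmem27 -0.31 (SE 0.07, adjusted p = 4.3e-05), in a contrast where 30.3% of genes passed with lower levels and 61.1% in either direction. With the GC offset Tmem27 was -0.06 (adjusted p = 0.188) and no longer passed, and Irx1, at 0.12 with all libraries, passed at -0.38 (1.06e-05). In the same contrast 7 of 10 acinar markers rose (median log2 fold change 0.71), 6 of 9 beta cell markers rose and 1 fell (0.47), all 4 Schwann cell and neuron markers fell (-0.73), and of 4 delta cell markers 1 rose and 2 fell. Their part in the members' values was not tested. Within the bound and without BALB/cJ, whose day 2 libraries are all beyond it, 5 of 6 members fell (21.1% of genes): Gcg at -0.87, Pou3f4 at -0.66, Irx1 at -0.63, Irx2 at -0.61 and Tmem27 at -0.16. AKR/J had the lowest value among the strains. There Gcg went from 26440.3, 29683 and 40437 CPM at day 2 to 5010.2, 6974 and 18887 CPM at day 90 (lowest, median, highest of 6 and 8 mice), with no overlap. Gcg was -1.80 (SE 0.19, adjusted p = 9.47e-16), Pou3f4 -1.69 (SE 0.38, adjusted p = 0.000284), Irx1 -1.62 (SE 0.37, adjusted p = 0.000387) and Irx2 -1.42 (SE 0.16, adjusted p = 1.25e-13), and these 4 passed in 11 of 11 settings, against 7.65% of genes that fell. Ttr at -0.03 and Tmem27 at -0.31 did not pass. In AKR/J mice on chow none of the 6 members passed over the same days (4.41% of genes fell), with Gcg at -0.33 (SE 0.20, adjusted p = 0.299) and 0 of 6 with an unadjusted p under 0.05 in edgeR's test. Whether the change over time differed between the diets was not tested.

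DBA/2J mice on HFHS followed AKR/J in this. Gcg went from 39508, 41634 and 55471 CPM at day 2 to 15989, 17377 and 37835 CPM at day 90, with no overlap. The log2 fold changes were -0.85 (SE 0.19, adjusted p = 0.000259) for Gcg, -0.78 (SE 0.16, adjusted p = 8.26e-05) for Irx2 and -1.43 (SE 0.37, adjusted p = 0.00224) for Pou3f4. Within the bound, Gcg was -0.97 and Irx1 -0.60 (adjusted p = 0.00689). Gcg on HFHS also fell in BALB/cJ at -1.09, which was -0.33 (adjusted p = 0.12) with the offset, and in A/J at -0.59, which was -0.33 (0.135) with it. The share of all genes that passed in these DBA/2J, BALB/cJ and A/J contrasts is not given here. Averaged over the strains on HFHS, 30.3% of genes passed with lower levels and 61.1% in either direction. Among the other alpha cell genes in AKR/J on HFHS, Slc38a5 fell by 1.33, while Gc rose by 1.33. All 4 delta cell and all 4 Schwann cell and neuron markers fell there too, and their part in the members' fall was not tested.

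**Figure D5:**
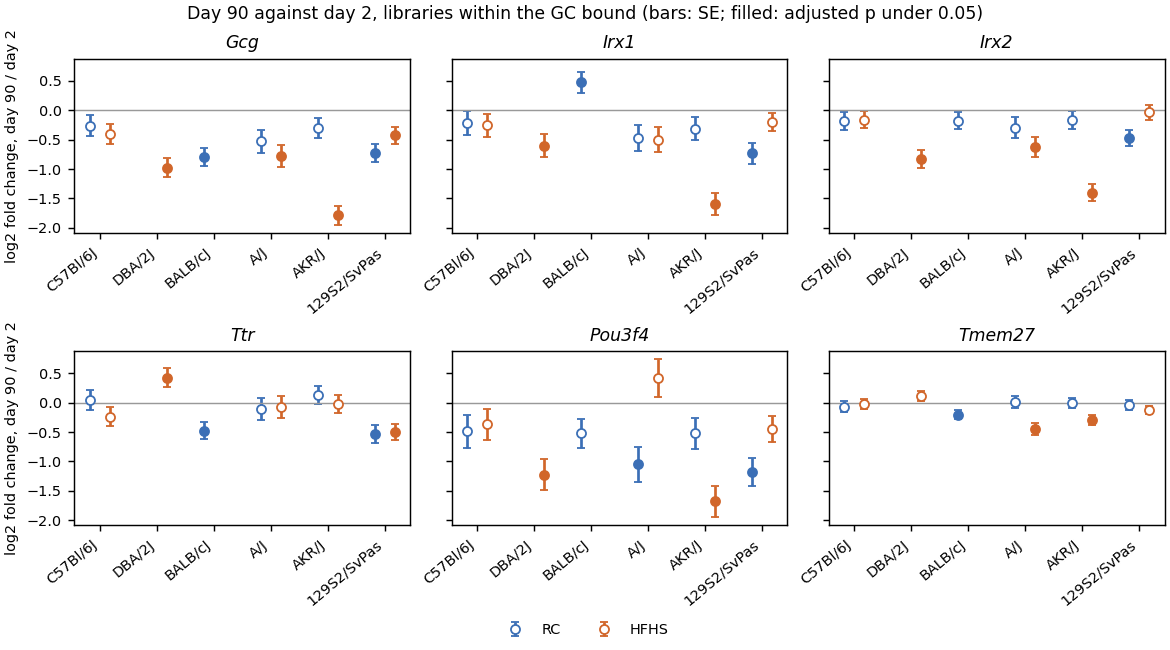
Log2 fold change of day 90 over day 2 for each member in each strain and diet, from the libraries within the GC bound, with bars of 1 SE and filled symbols where the adjusted p is under 0.05. DBA/2J on RC and BALB/cJ on HFHS have no value, since fewer than 2 libraries are left in 1 of their groups; Gcg is lowest in AKR/J on HFHS at -1.79.

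Mice of the same group that had more glucagon mRNA also had more Irx2. With group means removed from log2 levels, Gcg over all mice followed Irx2 with Pearson's r = 0.765 and Spearman's rho = 0.745, and r was 0.739 without the 2 mice farthest from the median of Gcg. Tmem27 followed it with r = 0.521 and rho = 0.513 (0.517 without 2 mice). Both relations, of 5 computed, had an adjusted permutation p of 2.5e-05, where 1e-05 before adjustment is the smallest that 100000 permutations can give. For Irx1 (r = 0.037, rho = 0.305), Ttr (0.093, 0.346) and Pou3f4 (-0.018, 0.089) r did not pass (adjusted permutation p of 0.615, 0.145 and 0.735), while the rho of Irx1 and of Ttr did (1.25e-05 each). With each library's curve on GC content removed, r with Gcg was 0.278 for Irx2 (rho 0.458), well below its value above, and 0.64 for Irx1, 0.484 for Tmem27, 0.459 for Ttr and 0.26 for Pou3f4 (rho 0.66, 0.496, 0.562 and 0.242), and all 5 passed (adjusted permutation p of 1e-05 for r). Over the 298 mice within the bound whose group keeps at least 2, all 5 relations passed, with adjusted permutation p of 6e-05 or less for r. There r was 0.794 for Irx2 (rho 0.765, without 2 mice 0.76), 0.661 for Irx1 (0.706, 0.62), 0.646 for Ttr (0.669, 0.649), 0.463 for Tmem27 (0.522, 0.542) and 0.235 for Pou3f4 (0.231, 0.227). Within AKR/J, which has no tilted library, r over 55 mice was 0.895 for Irx1, 0.834 for Irx2, 0.364 for Tmem27, 0.251 for Ttr and -0.074 for Pou3f4, of which Irx1, Irx2 and Tmem27 passed (adjusted permutation p of 2.5e-05, 2.5e-05 and 0.0107). Within A/J, over 43 mice within the bound, Ttr at 0.634 and Irx2 at 0.544 passed, and Tmem27 at 0.285, Irx1 at 0.26 and Pou3f4 at -0.029 did not (adjusted permutation p of 0.107, 0.117 and 0.854).

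Tmem27 had lower values with Irx1, Irx2 and Pou3f4 than with Gcg, Ttr and the beta cell hormone genes in these pairs. Over the same 298 mice its level followed the beta cell peptide gene Iapp most closely of the genes compared, with r = 0.759. Then came Ttr at 0.559, Gcg at 0.463, the insulin genes Ins1 at 0.438 and Ins2 at 0.38, Sst at 0.289, Irx2 at 0.132, Irx1 at 0.078 and Pou3f4 at -0.242. Gcg followed the delta cell hormone gene Sst with 0.605, Ins1 with 0.014 and Ppy with -0.174. Irx1 followed Irx2 with 0.785. These pairs are descriptions of mice that share strain, depth and islet preparation, and were not tested.

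Among 10242 genes, those whose levels most resembled that of Gcg over these mice were Gpx3 (r = 0.829), a secreted glutathione peroxidase, Irx2, Rbp4 (0.783), the retinol-binding protein that Ttr carries and a delta cell marker in the lists used here, and Higd1a (0.753). Edn3, C8b, Upp1, Sgce and Tmsb15b2 came next at 0.704 to 0.680, and Tmsb15b2 has a near-identical copy, so its counts are uncertain. Irx2 ranked 2 in this order, Irx1 11, Ttr 14, Tmem27 50 and Pou3f4 953. Over the 46 group means within the bound the order was another: Tmeff1 (0.920), Nudt11 (0.903), Higd1a (0.889), Dbpht2 (0.868) and Rragb (0.864) were most like Gcg. There Irx2 had r = 0.808, Pou3f4 0.787, Tmem27 0.639, Irx1 0.571 and Ttr 0.349. Pou3f4 thus had a higher r with Gcg over group means than among mice of a group, where it was 0.235. The part of its low counts in this difference was not tested. These points share strains and libraries, and the values are descriptions over mice and groups.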

How the data were processed

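Islet RNA of 338 mice was sequenced, 1 library per mouse. Per the labels' protocols, libraries were made with the TruSeq RNA v2 kit, which keeps no strand, so reads of a gene and of an overlapping antisense gene cannot be told apart. The submitters' processing notes name TopHat 1.3.3, SAMtools 0.1.16, HTSeq 0.5.3p3, edgeR and mm9. The authors deposited raw read counts per gene (21382 genes), which were used for all tests, and a normalized log2 table (14826 genes) in which the authors' values are log2 of scaled counts plus 1, used as an alternative. Library totals equal the sums over genes in 338 of 338 columns.

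The members and gene lists were chosen with earlier results of these data known. Counts were fitted over the 48 groups with edgeR 4.0.16 (R 4.3.3): TMM scaling, filterByExpr (16498 genes), robust quasi-likelihood, prior count 2, and Benjamini-Hochberg adjustment over all genes tested at 0.05. Contrasts were diet within each strain and day, its mean over strains, the strain by diet interaction, each strain against the other 5 on chow, and day 90 against day 2. Named genes are the members, the genes of the lists and the 5 to 8 genes most like Gcg among those with a mean of at least 5 CPM. Some genes of the lists are not reported here. The tests were also run on simulated counts that held no GC tilt and no differences between strains, so that run does not bear on either. Its outcome is not given here. GC content was taken from GENCODE transcripts for 98.5% of genes. Mice were taken as replicates, since the labels give each its own number. Alternatives were limma voom and limma on the authors' table (limma 3.58.1), DESeq2 1.42.0, its size factors, no filter, a GC offset, libraries left out, an acinar covariate, each day alone and a replicate block.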

Additional observations from a re-analysis of the deposited data

Results flagged for a closer look

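In 26 of 282 sets of a gene in a group of 4 to 10 mice, 1 mouse lay apart from the others by Dixon's test at its 95% critical value, which chance alone passes in about 1 set in 20. Pou3f4 had no such mouse. Of the 26, 10 are libraries beyond the GC bound.

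Single mice with much Gcg were most of the Gcg cases, all of them high. They were mouse 1HF148 at 53115 CPM (C57Bl/6J HFHS day 30, the others at most 32579), 2HF114 at 55471 (DBA/2J HFHS day 2, 42015) and 2HF121 at 43921 (DBA/2J HFHS day 30, 33640.1). Mouse 4HF28 had 40304 CPM (A/J HFHS day 30, the others at most 29048), 5HF1 had 40437 (AKR/J HFHS day 2, 31108) and 6HF41 had 61781 (129S2/SvPas HFHS day 90, 44469.7). Mouse 6RC5, beyond the GC bound and matching another strain, had 153302 CPM (129S2/SvPas RC day 2, 67300.5).

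The same mice often stood apart in more than 1 member. Mouse 1HF148 was also highest in Irx1 (28.3 CPM, the others at most 19.97), Irx2 (35.4, 27.3) and Ttr (2451, 1538). Mouse 2HF121 was also highest in Irx1 (22.0, 16.4) and Irx2 (27.97, 21.6), and 6RC5 in Irx2 (91.7, 46.8). In AKR/J HFHS day 90, 5HF44 had 11.2 CPM of Irx1 against at most 6.47 in the others, and in BALB/cJ HFHS day 2, where all libraries lie beyond the bound, 3HF1 had 5.07 against at most 2.32. Irx2 in 3RC31 was 29.9 CPM (BALB/cJ RC day 30, the others at most 23.5).

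Low Ttr and high Tmem27 came mostly from libraries beyond the bound. Ttr was 381 CPM in 4RC14 (A/J RC day 10, the others at least 1530.2) and 219.7 in 6HF6 (129S2/SvPas HFHS day 2, at least 1109), both beyond it, and 636 in 3RC44 (BALB/cJ RC day 90, at least 842), within it. Tmem27 was 1552 CPM in 2HF136 (DBA/2J HFHS day 90, the others at most 857), 2847 in 4HF1 (A/J HFHS day 2, 1395), 1621 in 4RC6 (A/J RC day 2, 677) and 1922 in 6HF6 (1275), all beyond it. It was low in 6HF99 at 565 (129S2/SvPas HFHS day 90, at least 750.0), also beyond it, and in 3RC29 at 614 (BALB/cJ RC day 30, at least 711), within it. Mouse 1RC120 had 765 CPM of Tmem27 (C57Bl/6J RC day 10, the others at most 696).

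The diet difference differed between strains by the interaction test for 13 of 24 member and day pairs. Of all genes 72.3% passed this test at day 2, 8.73% at day 10, 6.25% at day 30 and 50.3% at day 90. At day 90 the adjusted p was 1.89e-06 for Gcg, 7.15e-06 for Irx1, 7.87e-07 for Irx2 and 0.00611 for Ttr, and all 4 passed within the GC bound and with the GC offset. At day 30 it was 0.00153 for Irx1, and at day 10 0.0117 for Irx1 and 0.00756 for Irx2, the last not past the threshold with the offset (0.125). At day 2 it was 0.00249 for Gcg, 1.71e-05 for Irx1, 0.0018 for Irx2, 1.34e-05 for Ttr, 1.15e-05 for Pou3f4 and 3.28e-08 for Tmem27. Within the bound only Ttr (0.042) and Pou3f4 (0.0081) passed at day 2.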

How the results depend on the processing

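The counts of members that passed moved with the handling of tilted libraries and with the test. The number of all genes that passed, out of 15564 to 16636 tested, moved with them and is given in the same order. For the mean diet effect at day 2, 3 of 6 members passed, 5 with limma voom, 5 without the libraries of another strain, 1 within the GC bound, 0 with the GC offset and 0 with the day alone. Of all genes 6757 passed there, and 9569, 9434, 3284, 3323 and 1875 in these settings. At day 10 it was 0, and 1 with voom and 1 within the bound. At day 30 it was 1, and 6 with voom, 4 within the bound, 4 without libraries of another strain, 2 with the acinar covariate and 6 with the day alone. Of all genes 1638 passed there, and 7941, 6767, 3496, 3905 and 7633 in these settings. At day 90 it was 1, and 2 with DESeq2, 4 with voom, 0 within the bound, 2 without libraries of another strain and 2 with the acinar covariate. Of all genes 2733 passed there, and 3133, 8967, 1665, 5001 and 3977 in these settings. On chow 2 of 36 strain tests passed (3.37% of such tests over all genes) and 1 within the bound, where the share over all genes is not given. Of the strain and day tests of diet 22 passed (10.4% of such tests over all genes) and 36 with voom, and of 24 interaction tests 13 and 21. The shares over all genes with voom are not given for these. Over time 4 members passed on RC, and on HFHS 3 and, within the bound, 5. Of all genes 3831 of 16498 passed on RC, 10084 of 16498 on HFHS and 6708 of 16636 on HFHS within the bound. Leaving out each replicate in turn gave 3 to 3 at day 2, 0 to 0 at day 10, 2 to 2 for strains, 19 to 24 for strain and day tests (66 of these chosen after seeing the data), 13 to 14 for interactions and 4 to 4 for time on RC.

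Mouse numbers do not pair the mice: over same-numbered pairs the correlation of deviations was -0.858 to 0.694 (median -0.007), and 14 matched best with their own number. With the replicate block, fitted in each day alone and chosen so after seeing the data, the counts were 0 at day 2, 0 at day 10, 1 at day 30, 1 at day 90, 11 of 96 strain and day tests and 6 of 24 interactions. At these 4 days 91 of 15630, 28 of 15595, 1738 of 15315 and 1685 of 15539 genes passed. The shares over all genes with the block are not given for the strain and day tests or for the interactions.

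Signs turned in 16 single values. Irx1 at day 2 became 0.021 within the bound. Tmem27 became 0.019 in 129S2/SvPas at day 2 with voom, -0.21 in A/J at day 10 within the bound, 0.10 in DBA/2J at day 90 with the offset, and in AKR/J at day 90 -0.047 with the acinar covariate, and -0.0086 to 0.0671 with each mouse left out in turn, below 0 without HFHS mouse 5HF42 or 5HF48. Of the 5 correlations with Gcg, 2 passed with all libraries, 5 within the bound, 5 with the GC curve removed, and 5, 4, 5, 5, 2 and 3 within C57Bl/6J, DBA/2J, BALB/cJ, 129S2/SvPas, A/J and AKR/J. With plain CPM r was -0.058 for Irx1, -0.009 for Ttr and 0.009 for Pou3f4, and for Pou3f4 it was 0.235 within the bound, 0.26 with the curve removed, and 0.492, 0.165, 0.402 and 0.367 within the first 4 of those strains. Where no value is given, the cause of a change was not tested. Of the other single values 952 kept direction and call, 76 lost a call and 44 gained one. Depth limits Pou3f4 most.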

Other observations

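Genes that act on glucagon's precursor or on alpha cell secretion were also followed over time on HFHS, and the count that passed does not set them apart from all genes. As a mean over the strains with all libraries, of 12 processing and signalling genes 3 rose and 5 fell between day 2 and day 90, against 61.1% of all genes that passed in either direction. Within the GC bound 1 rose and 3 fell, where 6708 of 16636 genes passed in either direction. The median log2 fold change was 0.00. Among them Gpr119, a receptor for fatty acid amides, fell by 0.66, Sstr2 by 0.67 and Dpp4, the peptidase that degrades incretins, by 0.46, while the glucagon receptor gene Gcgr rose by 0.68. Within AKR/J on HFHS over the same days Gpr119 fell by 1.03, Avpr1b by 1.46 and Sstr2 by 1.76, and 9 of 12 did not pass.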
